A study of Bos indicus with 72 samples.

Results

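The right and the left ovary of the same heifer were compared after puberty, in 12 RNA-seq libraries out of 72 in the series. The members were all libraries labelled as ovary and post-puberty: 6 from right ovaries and 6 from left ovaries of the animals numbered 2047, 2056, 2057, 2059, 2061 and 2064. All are Brahman, a humped Bos indicus breed, and the series followed 6 tissues around puberty. The labels give no treatment, age, cycle stage, part of the ovary sampled or side of ovulation. The 12 ovary libraries of the 6 heifers labelled pre-puberty (6 right, 6 left) served only for comparison. Animal 2059 carries the post-puberty label in its ovaries and the opposite one in liver and uterus, and for animal 2054 of the pre-puberty group the conflict runs the other way.

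An ovary holds follicles, each an oocyte surrounded by granulosa and theca cells, within a stroma with vessels and immune cells. At ovulation 1 follicle opens, and its granulosa and theca cells turn into the corpus luteum, a vascular gland that makes progesterone. Before puberty neither ovary has ovulated. Afterwards a corpus luteum usually sits in 1 of the 2 ovaries, so the higher side may change from heifer to heifer. A mean right-left difference can therefore miss what single pairs show, and each pair was read on its own as well. The files identify genes by Ensembl number only and do not pair the numbers with names, and 0 entries of the RefSeq table at hand carry such a number. Functions are thus not given, the ovary label could not be checked against markers of luteal, granulosa, theca or oocyte cells, and only 4 genes are named, by number.

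Few reads in these libraries fell in genes, and some libraries stood apart. Gene reads lay between 184808 and 334454 in the right ovaries and between 192410 and 272306 in the left ovaries, among 30439894 to 41444554 reads per library. Reads counted in genes made up 0.791 ± 0.180% of all reads on the right and 0.602 ± 0.064% on the left (SD, n = 6 each), with right higher in 5 of 6 animals. The exact two-sided paired permutation test gave p = 0.0625 for this difference (0.188 after Benjamini-Hochberg adjustment over 6 library measures), and 6 pairs allow no p below 0.0313. The mean difference of 0.189 points was 0.106 without 2047 and 0.051 without both 2047 and 2059. The share was 1.10% on the right against 0.496% on the left in animal 2047 and 0.891% against 0.562% in animal 2059. The left libraries of these 2 animals also held the most reads not aligned to a unique place, 31.8% in 2047 and 22.2% in 2059, where their right libraries held 8.64% and 8.15%. In the other 4 animals that share lay between 8.79% and 11.2% on the right and between 8.65% and 10.2% on the left. The file names carry the numbers 67 and 68 for right and 65 and 66 for left ovaries, so side and file number cannot be told apart. The TMM scaling factor, which corrects for a few genes taking a large share of reads, was 0.40 in the right library of 2047 and at least 0.68 in the other 11.

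A single gene was the most counted in all 24 ovary libraries. After puberty it took 33.1, 22.1, 15.6, 28.1, 11.4 and 16.2% of gene reads in the right ovaries of 2047, 2056, 2057, 2059, 2061 and 2064. In their left ovaries it took 11.04, 12.7, 16.7, 13.0, 10.96 and 13.6%. The right share was the larger one in 5 of 6 animals, and in 2057 the left share was. The mean share was 21.1 ± 8.29% on the right and 13.0 ± 2.12% on the left (SD, n = 6 each; exact paired permutation p = 0.0938, adjusted 0.188). The mean difference of 8.07 points was 5.27 without 2047 and 2.81 without both 2047 and 2059. Because such a gene moves the share left for all others, values from here on are CPM scaled with the TMM factors, unless stated otherwise. CPM are counts relative to the library's reads in the genes tested.

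**Figure D1:**
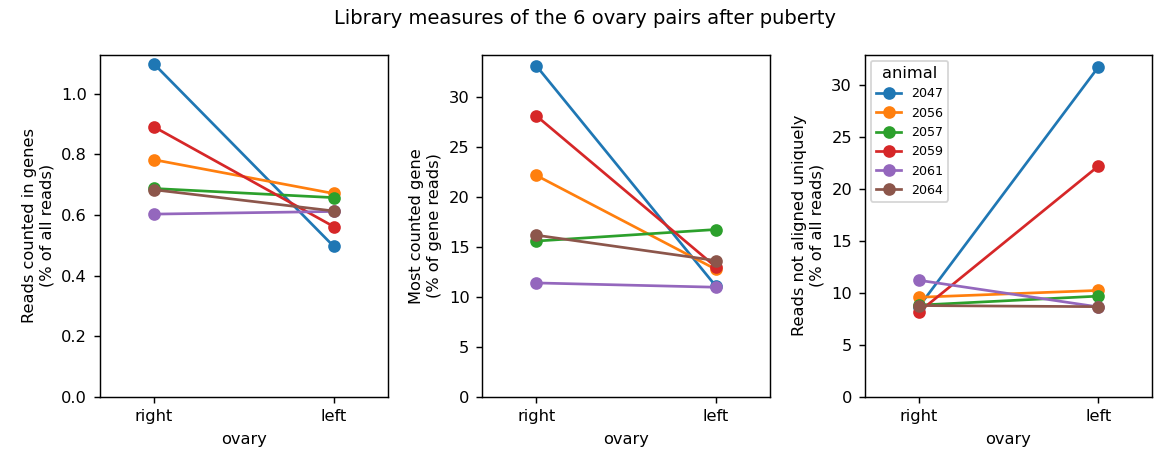
Percentage of reads counted in genes, percentage of gene reads in the most counted gene and percentage of reads not aligned uniquely (vertical axes) in the right and left ovary of each of 6 animals after puberty. A line joins the ovaries of 1 animal; the left libraries of 2047 and 2059 reach 31.8% and 22.2% of reads not aligned uniquely.

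Most genes differed little between the ovaries of a heifer, and the pairs were unlike in how far they differed. Among 1132 genes with a mean of at least 20 reads, the median absolute log2 ratio of right to left was 0.72 in animal 2047, 0.49 in 2059, 0.48 in 2064, 0.36 in 2061, 0.35 in 2056 and 0.29 in 2057. Right was at least 2-fold higher in 201 of the 1132 genes in 2047 (17.8%) and left in 202 (17.8%). Animal 2059 had 125 genes at that size on the right (11%) and 101 on the left (8.92%), and animal 2064 had 130 (11.5%) and 76 (6.71%). In 2061 the numbers were 55 (4.86%) on the right and 47 (4.15%) on the left. Animal 2056 leaned to the right, with 91 genes (8.04%) against 20 (1.77%). Animal 2057 had the fewest, 19 on the right (1.68%) and 9 on the left (0.795%). The left libraries with most reads not aligned uniquely belong to 2047 and 2059. Animal 2064 held 8.79% of such reads on the right and 8.68% on the left, and its median ratio was close to that of 2059. The part of such reads in the counts was not tested.

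The 50 genes that differed most were those with the highest mean absolute log2 ratio over the 6 animals, so their ratios are a description and carry no test. That mean was 3.40 for the first gene, 1.23 for the 50th and 1.22 for the 51st, with a median of 0.50 over all 1132 genes. Of the 50, 42 leaned to the right in the mean and 8 to the left. Right was higher for 39 of the 50 in 2047, 41 in 2056, 41 in 2059, 40 in 2061 and 42 in 2064, but for only 21 of 50 in 2057. Over all 1132 genes right was higher in 49.5%, 48.6%, 50.3%, 53.6%, 47.6% and 46.5% of genes in the same order of animals. Of the 42 right-leaning genes, 10 were higher on the right in 6 of 6 animals, 25 in 5, 6 in 4 and 1 in 3. Of the 8 left-leaning genes, 6 were higher on the left in 5 of 6 animals and 2 in 3. Most of the 42 were weakly counted, with a median of 43.8 reads per library and a range of means from 20.2 to 14120.

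On this list, size as well as direction separated animal 2057 from the rest. The median log2 ratio of the 42 right-leaning genes was 3.12 in 2047, 2.14 in 2059, 1.66 in 2064, 0.94 in 2056 and 0.92 in 2061, against -0.21 in 2057. A right value at least 2-fold higher was reached by 38, 37, 30, 20 and 18 of the 42 genes in the first 5 of these animals and by 1 gene in 2057. The sizes in 2047 and 2059 depend in part on the scaling. Their TMM factors were 0.40 on the right and 1.33 on the left in 2047, and 0.68 and 1.25 in 2059. A lower right factor raises every right-left ratio of the pair above that of unscaled CPM. With RLE scaling in place of TMM, the right-leaning genes had medians of 3.19 in 2047 and 2.16 in 2059. The 8 left-leaning genes had medians of -3.20 in 2047, -1.34 in 2059, -1.28 in 2061, -0.70 in 2064, -0.15 in 2057 and 0.23 in 2056. They thus had no common side in 2056 and 2057, where left was higher for 4 of 8 in each. The largest ratios again belonged to 2047 and 2059. With the list chosen from the other 4 animals alone, an alternative added after seeing the data, it shared 28 of 50 genes with the original one and had 44 right-leaning genes. In the 2 animals left out of that choice, right was higher for 29 of the 44 in 2047 and 37 of 44 in 2059, with median log2 ratios of 0.862 and 0.998. In 2057, which took part in that choice, right was higher for 24 of the 44, with a median of 0.013. With only 2047 left out of the choice, 2057 had right higher for 25 of 45 and a median of 0.081. The side of 2057 thus depended on the list, and its median stayed the lowest.

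**Figure D2:**
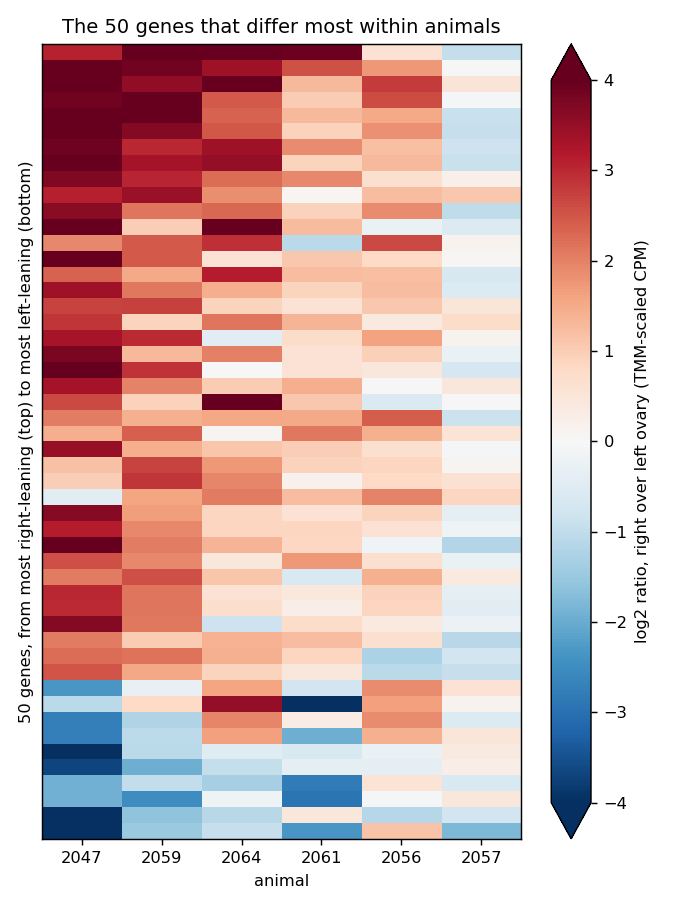
Log2 ratio of right to left ovary (colour, red higher on the right, blue higher on the left; colours end at 4 and -4) for the 50 genes that differ most within animals (rows) in the 6 animals after puberty (columns). The columns of 2047, 2059, 2064, 2061 and 2056 are mostly red for the 42 right-leaning genes and that of 2057 is pale, with a median of -0.21.

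Each animal was also left out in turn and the 50 genes were picked by the ratios of the other 5. The 1132 genes to pick from and the scaling still came from all 12 libraries, so the animal left out was not fully apart from the choice. In the animal left out, right was higher for 35 of 45 right-leaning genes in 2047, 32 of 36 in 2056, 34 of 39 in 2059, 38 of 43 in 2061 and 35 of 37 in 2064. In 2057 it was higher for 17 of 42. The medians in the animals left out were 2.06, 0.85, 1.98, 0.87 and 1.36 on the log2 scale, and -0.21 in 2057. The median over all genes lay between -0.05 and 0.05 in each pair. Left-leaning genes carried over less evenly: left was higher for 5 of 5 in 2047, 6 of 14 in 2056, 3 of 8 in 2057, 8 of 11 in 2059, 5 of 7 in 2061 and 9 of 13 in 2064.

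When each animal was given its own list of the 50 genes with the largest absolute ratio, the right side held more of them than the left in 6 of 6 animals, by different margins. Right was higher for 47 of 50 in 2056, 45 in 2064, 39 in 2059, 32 in 2047, 31 in 2057 and 26 in 2061. The smallest ratio on such a list was 2.94 (absolute log2) in 2047 but only 0.91 in 2057. These lists had 29, 17, 7, 31, 17 and 22 genes in common with the shared list of 50 in 2047, 2056, 2057, 2059, 2061 and 2064. Most genes on the lists of 2056, 2057, 2061 and 2064 were therefore others, most of all in 2057.

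Some animals resembled each other more than others did. Spearman's rho across the 1132 genes between 2 animals' right-left ratios was highest for 2047 with 2059 (0.62), 2056 with 2064 (0.48) and 2059 with 2064 (0.47). It was lowest for 2057 with 2047 (-0.26), and the median over the 15 pairs of animals was 0.23. Among the pre-puberty animals the 15 values ran from -0.41 to 0.37 with a median of -0.05. Their genes and scaling came from the pre-puberty ovary libraries alone, so the genes need not be the same 1132. Genes are not independent replicates, and all ratios of 1 animal share 2 libraries, so these are descriptions. Animals 2047 and 2059 share the file numbers 66 and 68 and have the left libraries with most reads not aligned uniquely. Animals 2056 and 2064 share the file numbers 65 and 67, while 2059 and 2064 share none. The part of these library traits in the likeness was not tested. A single component took 57.1% of the sum of squares of the 6 ratio profiles. Its scores were 40.2 for 2047, 25.2 for 2059, 16.8 for 2064, 8.43 for 2061, 6.55 for 2056 and -2.54 for 2057. They rank the animals as the 42 genes do except that 2056 and 2061 change places. The 42 genes were picked from the same ratios, so this likeness in rank follows in part from the choice. A pair with large ratios weighs more in such a component, and 2047 weighed most.

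The level of the 42 genes in each ovary was set against the mean of the 12 pre-puberty ovaries, and the median over the 42 genes was taken. The genes were chosen for high right values among genes filtered on reads after puberty, and 8 of the 42 did not pass the filter on low counts before puberty. High right levels against the pre-puberty mean follow in part from that choice, so the levels are a description. In the right ovaries after puberty it was 2.94 in 2047, 2.10 in 2059, 1.59 in 2064, 1.52 in 2057, 1.08 in 2056 and 0.47 in 2061, on the log2 scale. In the left ovaries it was -0.03 in 2047, -0.10 in 2059, -0.10 in 2064, 0.08 in 2056 and -0.28 in 2061, but 1.89 in 2057. All 6 right ovaries and the left ovary of 2057 thus lay above the 12 pre-puberty ovaries, which ran from -0.34 to 0.25. The remaining 5 left ovaries lay inside that range. In animal 2057, 39 of the 42 genes were above the pre-puberty mean on the right and 39 on the left. The gap between right and left in the other 5 pairs follows from the choice as well. Within bulk tissue, more cells of a type and more RNA per cell cannot be told apart.

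**Figure D3:**
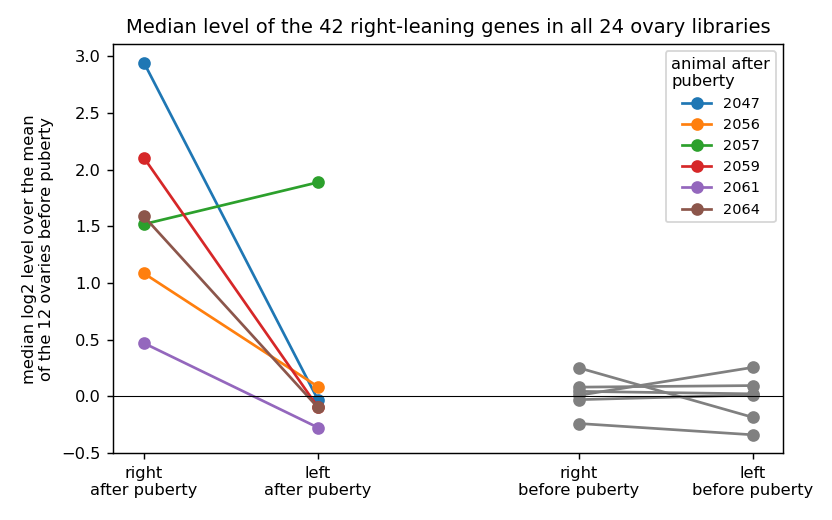
Median over 42 right-leaning genes of the log2 level relative to the mean of the 12 ovaries before puberty (vertical axis), in the right and left ovary of each animal after puberty (coloured) and before puberty (grey). Both ovaries of 2057 lie high (1.52 right, 1.89 left), while the left ovaries of the other 5 animals lie between -0.28 and 0.08.

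By reads, the 42 genes together held 32.2% of gene reads on the right against 6.48% on the left in 2047 and 21.4% against 8.03% in 2059. The shares were 13.5% and 8.22% in 2064, 13.2% and 8.71% in 2056, and 9.22% and 5.58% in 2061. In 2057 they were 16.2% on the right and 17.7% on the left. A single gene made up much of these sums, from 3.03 to 12.8% of gene reads in the right ovaries and from 1.501 to 5.72% in the left ones. That gene was higher on the right in 6 of 6 animals, and the fit gave 1.42 ± 0.50 for it (log2 change and SE; edgeR adjusted p = 0.193). Without it the other 41 genes still held more on the right than on the left in 5 animals (19.4% and 4.01% in 2047), and in 2057 they held 9.66% on the right and 12% on the left.

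Before puberty the right-leaning genes were near even between the sides, and the left-leaning ones varied by animal. Of the 42 genes, 34 passed the filter on low counts among the 12 pre-puberty ovaries alone. Right was higher for 22, 20, 16, 13, 19 and 19 of these 34 in animals 2046, 2048, 2049, 2054, 2055 and 2060. Their median log2 ratios lay between -0.06 and 0.14, where those of all genes lay between -0.04 and 0.03. The 8 left-leaning genes had medians of -1.53 in 2060, -0.61 in 2046 and -0.30 in 2054, with left higher for 6, 6 and 5 of 8, and medians from 0.03 to 0.36 in the other 3 animals, with left higher for 3 of 8 in each. The genes were chosen by their ratios after puberty, so smaller ratios in animals outside that choice follow in part from it. The difference in right-left ratio between post-puberty and pre-puberty animals was tested gene by gene and is given further on.

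The gene with the highest mean absolute ratio, ENSBTAG00000043960, was nearly without reads in 4 of the 6 left ovaries. Its level was 141 TMM-scaled CPM in the right ovary of 2047, 66.3 in 2056, 739 in 2057, 321 in 2059, 197 in 2061 and 1333 in 2064. In the left ovaries it was 8.94, 41.2, 1454, 4.48, 4.55 and 0 CPM in the same order. The right value was the higher one in 5 animals and the left one in 2057, whose left ovary held 330 reads against 192 on the right. The left ovaries of 2047, 2059, 2061 and 2064 held 2, 1, 1 and 0 reads, so their ratios depend on the prior count. In 2064, with 353 reads on the right and none on the left, the right was at least 107-fold higher, taking 3 reads as the floor of the left library. The 12 ovaries before puberty held between 2 and 23 reads. In the paired fit its log2 change was 2.99 ± 1.33 (SE; edgeR adjusted p = 0.326). It passed the threshold in 3 of 16 alternatives: without 2057 (4.51, edgeR adjusted p = 0.0071), in DESeq2 (4.14, adjusted p = 0.026) and in files 66 and 68 (5.07, edgeR adjusted p = 0.00024). The highest adjusted p over the 16 was 0.963.

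The strongest left-leaning gene of the 50, ENSBTAG00000044418, was at 7.85, 120, 7.70, 45.8, 44.3 and 64.2 CPM in the right ovaries of 2047, 2056, 2057, 2059, 2061 and 2064. Its left ovaries stood at 282, 49.4, 48.5, 143, 259 and 128 CPM. Left was higher in 5 of 6 animals, 2057 among them, and right was higher in 2056. The right levels rest on 1 to 29 reads and the left ones on 11 to 63. The fitted log2 change was -1.56 ± 0.57 (SE; edgeR adjusted p = 0.217). It passed the threshold in 3 of 17 alternatives, which were DESeq2, no filter on low counts, and files 66 and 68, with adjusted p between 0.00027 and 0.80 over the 17.

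**Figure D4:**
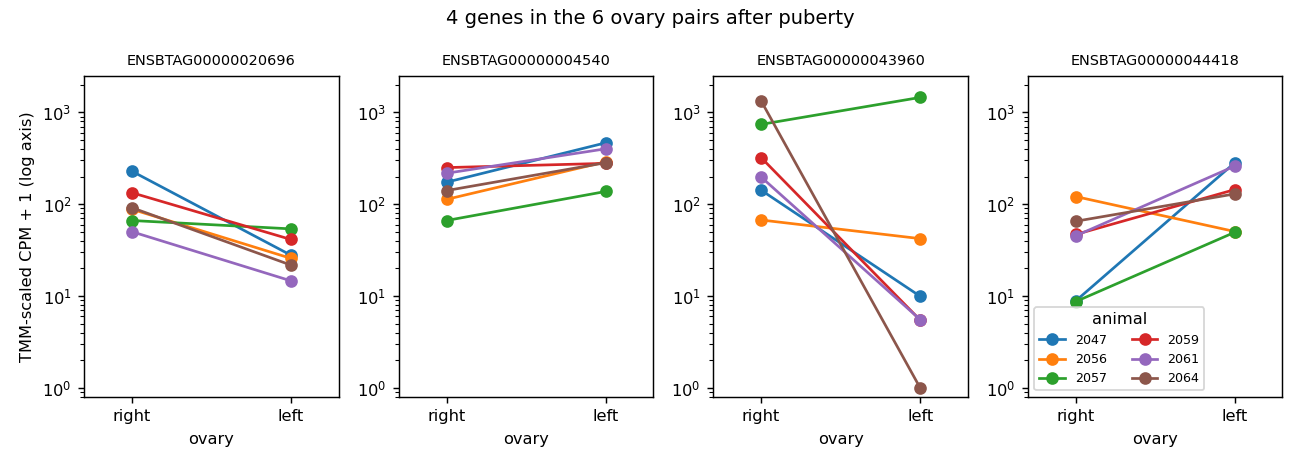
Level of 4 genes as TMM-scaled CPM plus 1 (log axis) in the right and left ovary of 6 animals after puberty, a line joining the ovaries of 1 animal. The first 2 genes keep 1 direction in 6 of 6 animals, while for ENSBTAG00000043960 the line of 2057 runs against the other 5 and for ENSBTAG00000044418 that of 2056 does.

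A fixed side was then tested across all genes, with the animal as a block. Of 1889 genes, edgeR's quasi-likelihood test called 0 at a Benjamini-Hochberg adjusted p under 0.05 (0%), and 308 had an unadjusted p under 0.05 (16.3%), 185 higher on the right and 123 higher on the left. Without animal 2059, whose labels conflict between tissues, 192 of 1943 genes had such a p, 126 higher on the right and 66 on the left, and 0 were called. The smallest adjusted p with all 6 animals was 0.097. DESeq2 called 66 genes, 48 higher on the right and 18 on the left, and limma voom with quality weights called 3, all higher on the right. The count depended on animal 2057: without it edgeR called 37 of 1825 genes, all 37 higher on the right. Of the 37, 21 were among the 50 that differ most. Those 50 were picked by right-left ratios of the same libraries, so this overlap follows in part from the choice. Without 2047 edgeR called 4, and without both 2047 and 2059 it called 1, with 241 at an unadjusted p under 0.05. Within the animals of files 66 and 68 (2047, 2059 and 2061) it called 91 genes, 49 higher on the right and 42 on the left, and within those of files 65 and 67 (2056, 2057 and 2064) it called 0, with 269 at an unadjusted p under 0.05. Letting all 24 ovary libraries share the spread gave 13 genes, all higher on the right.

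Direction was also counted without regard to size. Right was higher in 6 of 6 animals for 88 of the 1889 genes (4.66%) and left in 6 of 6 for 82 (4.34%). With RLE scaling in place of TMM the numbers were 74 and 108, so which side led in this count depended on the scaling. The genes higher on the right in every animal had the larger changes: their median log2 change was 0.85 and 33 of 88 reached 2-fold, against -0.65 and 8 of 82 for those higher on the left in every animal. A total of 27 genes had an adjusted p under 0.1, 24 of them higher on the right, with a median log2 change of 1.43 among the 24.

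Among genes with 1 direction in all animals, ENSBTAG00000020696 had the smallest p on the right. It stood at 228, 87.1, 65.5, 132, 49.2 and 90.6 CPM in the right ovaries of 2047, 2056, 2057, 2059, 2061 and 2064, and at 26.8, 24.7, 52.9, 40.3, 13.6 and 20.7 CPM in their left ovaries. The lowest right value lay within the range of the left ones, and the gap was least in 2057. Its means were 109 ± 64.6 CPM on the right and 29.9 ± 14.3 CPM on the left (SD, n = 6 each), and the log2 change was 1.77 ± 0.35 (SE; edgeR adjusted p = 0.097). It passed the threshold in 5 of 17 alternatives: DESeq2 (adjusted p = 0.012), no filter on low counts (edgeR, 0.0039), without 2057 (edgeR, 0.0045), files 66 and 68 (edgeR, 0.014) and all 24 libraries in the fit (edgeR, 0.030). The highest adjusted p over the 17 was 0.372. These levels rest on 10 to 29 reads on the right and 3 to 12 on the left.

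ENSBTAG00000004540 had the smallest p among genes higher on the left in all animals. It stood at 173, 112, 65.5, 250, 216 and 140 CPM in the right ovaries, in the same order of animals, and at 465, 288, 137, 278, 400 and 282 CPM in the left ones. Left was higher in 6 of 6 animals, the gap being least in 2059, and the lowest left value was that of 2057. The means were 159 ± 67.8 CPM on the right and 308 ± 114 CPM on the left (SD, n = 6 each), a log2 change of -0.97 ± 0.23 (SE; edgeR adjusted p = 0.097). It passed the threshold in 2 of 17 alternatives, DESeq2 (adjusted p = 0.025) and no filter on low counts (edgeR, 0.0044), and the highest adjusted p was 0.372.

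Whether the right-left difference itself changed with puberty was tested as an interaction over the 24 ovary libraries. Of 2476 genes, edgeR called 0 (0%), and 136 had an unadjusted p under 0.05 (5.49%), 78 with the larger right-left ratio after puberty. That number was 67 of 2468 without 2054 and 2059, the animals with conflicting labels, and 217 of 2514 without 2057. It was 41 in files 65 and 67 and 213 in files 66 and 68. DESeq2 called 1 and limma voom 0. Without animal 2057, 11 genes were called, all with the larger right-left ratio after puberty. Within the pre-puberty animals edgeR called 0 of 2044 genes between right and left (0%), with 75 at an unadjusted p under 0.05 (3.67%). For ENSBTAG00000020696 the interaction was 1.62 on the log2 scale (unadjusted p = 0.0043, edgeR adjusted p = 0.860), and for ENSBTAG00000004540 it was -1.10 (unadjusted p = 0.0075, edgeR adjusted p = 0.860). Both genes were chosen for a small right-left p after puberty, in libraries that also enter the interaction. Their small unadjusted p-values here follow in part from that choice. The other 2 named genes had larger p-values. The interaction was 2.37 for ENSBTAG00000043960 (edgeR unadjusted p = 0.121, adjusted p = 0.893) and -0.63 for ENSBTAG00000044418 (edgeR unadjusted p = 0.441, adjusted p = 0.980).

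A measure that needs no fixed side asked whether the ovaries of an animal were less alike after puberty. The median absolute log2 ratio between the ovaries of an animal, over 1223 genes with a mean of at least 20 reads in the 24 libraries, was 0.449 ± 0.144 after puberty and 0.355 ± 0.045 before it (SD, n = 6 each). The exact two-sided permutation test gave p = 0.145 for the difference of 0.094. Animals 2047, 2059 and 2064 lay above all 6 pre-puberty animals, and 2057 lay below all 6 of them. Without 2057 the difference was 0.121 with p = 0.0498 in the exact permutation test, and without 2047 it was 0.042 with p = 0.318. The pre-puberty animal with the highest value, 2060 at 0.421, also had the left library with most reads not aligned uniquely, 50.3%. The part of such reads in this value was not tested.

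**Figure D5:**
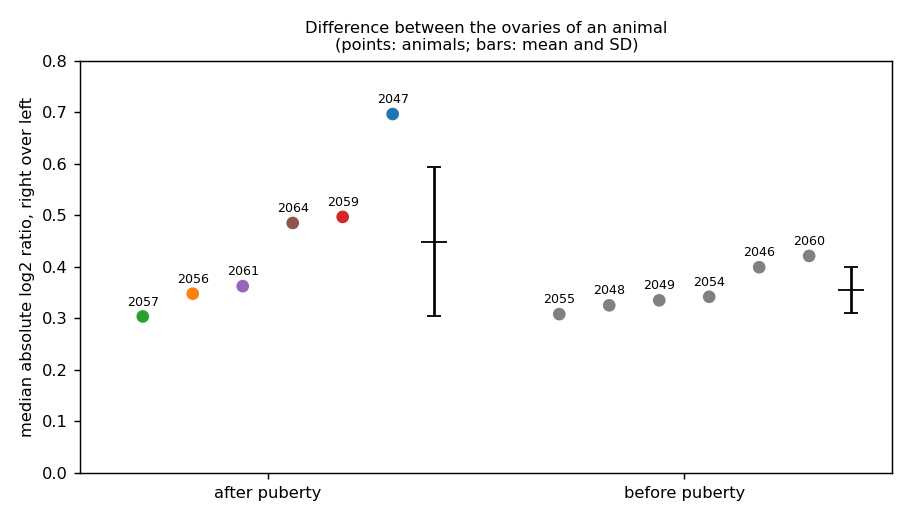
Median absolute log2 ratio of right to left ovary over 1223 genes (vertical axis) for 6 animals after and 6 before puberty; points are animals, bars the mean and SD. The animals after puberty run from 0.304 (2057) to 0.697 (2047), those before puberty from 0.308 to 0.421.

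The 42 right-leaning genes were also read in 2 other organs of the same puberty group. For ovary and both organs, CPM here are counts relative to all gene reads of a library, without TMM scaling. In the 6 post-puberty pituitary libraries, 27 of the 42 had a mean of at least 10 CPM (64.3%), against 80.5% of the 1132 genes, and in the hypothalamus 30 of 42 (71.4%) against 79.2%. The ovary level was at least 4-fold that of the hypothalamus for 64.3% of the 42 and for 61.7% of the 1132. For the pituitary those shares were 61.9% and 59.6%. No test was made of these shares.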

How the data were processed

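Total RNA of left and right ovary (Trizol, RNeasy columns, TruSeq libraries) was sequenced from both ends on an Illumina instrument, per the labels' protocols. The deposited values are raw counts per Ensembl gene from htseq-count, per the file names, with 1 file per library and 24616 genes in each. Per the submitters' processing notes, the genome was UMD3.1. Aligner, annotation and use of strand: not given in the sources used here. Therefore genes that overlap, lie antisense or have near copies may share reads. Rows for reads in no gene (67.7 to 90.9% of reads after puberty), ambiguous or not uniquely aligned reads name no gene and stayed out of tests.

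Right and left were compared with edgeR 4.0.16 (R 4.3.3; filterByExpr, TMM, robust quasi-likelihood F test, two-sided, Benjamini-Hochberg adjustment), blocking on the animal. Labels give both ovaries 1 animal number, which is the pairing. As a check, the median r between the deviations of right and left libraries was 0.294 within animals and -0.035 across animals. Within animals r passed 0.1 in 4 of 6, and was -0.136 in 2047 and 0.022 in 2064. The library of the same animal was the best match in 3 of 6 animals, so the check bears out the pairing only in part. Standard errors come from the F statistic. Ratios per animal used log2 CPM with a prior count of 2. Alternatives were DESeq2 1.42.0, limma 3.58.1 with voom, RLE factors, no filter, thinning to equal depth, file subsets and leaving animals out. The edgeR, DESeq2 and voom fits were tested on simulated data. No 2 libraries of a group were duplicates (mean chi-square per gene at least 3.26). Named genes were, per side, the smallest p among genes of 1 direction in 6 of 6 animals with at least 50 CPM on the higher side, and the highest mean absolute ratio among the 50. The cell type marker lists that were set could not be used, since identifiers match no names. The members and lists were chosen with earlier results of these data known. Liver and uterus values were not used here.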

Additional observations from a re-analysis of the deposited data

Results flagged for a closer look

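Of 31 sets of 6 values searched for an isolated lowest or highest value, 3 had one (about 1.55 by chance), each time in animal 2057. The left ovary of 2057 held ENSBTAG00000043960 at 1454 CPM, and the nearest other left ovary stood at 41.2 CPM. Of the 50 genes that differ most, 21 were higher on the right in 2057, and the nearest other animal had 39. The 42 right-leaning genes took 17.7% of gene reads in its left ovary, and the nearest other left ovary had 8.71%. These 3 are not separate observations: ENSBTAG00000043960 is 1 of the 42 genes, and the 42 are part of the 50. The libraries of 2057 held 8.83% of reads not aligned uniquely on the right and 9.70% on the left, within the range of the other animals. The cause of the isolated values was not tested.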

How the results depend on the processing

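The count of genes called between right and left was 0 in edgeR with TMM or RLE, without the most counted gene and at equal depth. It was 66 in DESeq2, 3 in voom, 127 without the filter on low counts, 13 with all 24 libraries in the fit, 91 in files 66 and 68, 1 without 2047 and 2059, and 0 to 37 with 1 animal left out. Without the animal as a block it was 0. The count for the change with puberty was 1 in DESeq2, 6 without the filter, 1 in files 66 and 68, and 0 to 11 with 1 animal left out. The divergence between ovaries kept its direction in all alternatives, from 0.042 to 0.125 with 1 animal left out. Genes higher in every animal numbered 115 to 151 on the right and 113 to 184 on the left with 1 animal left out, and 222 and 187 without 2047 and 2059, where fewer animals make the rule easier to meet. The first component took 52 to 64.1% with 1 animal left out. The list of 50 kept 44 of its genes with a prior count of 0.5 or 5 and 48 with RLE. With a mean of at least 50 reads it kept 23. Right was then higher for 29 of 50 in 2047, 23 in 2057 and 36 to 40 in the rest. At equal depth the list kept 34, with right higher for 33 in 2047, 34 in 2061, 21 in 2057 and 38 to 39 in the rest. Over 17 alternatives (16 for ENSBTAG00000043960) no named gene changed side, but each passed the threshold in some, as given with its values. Their log2 changes ran from 1.305 to 2.29 for ENSBTAG00000020696, -1.18 to -0.76 for ENSBTAG00000004540, 0.90 to 5.07 for ENSBTAG00000043960 and -2.61 to -0.44 for ENSBTAG00000044418.

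Right minus left in library measures, with 1 animal left out, ran from 0.106 to 0.229 points for reads in genes, 5.27 to 9.92 points for the most counted gene, -87.2 to 642 for genes with reads, -7.73 to -2.59 points for reads not aligned uniquely, 2.48 to 7.50 points for reads in no gene and 41820 to 71780 for gene reads. With 5 pairs no p below 0.0625 is possible. Without the pairing the means are the same and exact permutation p-values were 0.0152 for reads in genes (0.189 points), 0.039 for the most counted gene (8.07 points) and 0.0476 for gene reads (58520). Without 2047 and 2059 reads not aligned uniquely turned to 0.287 points and reads in no gene to -0.339 points, and the difference was 0.051 points for reads in genes, 2.81 points for the most counted gene and 24520 for gene reads. For these shifts the cause was not tested. Depth limits single genes: 49.2 CPM of ENSBTAG00000020696 in the right ovary of 2061 stood for 10 reads.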
